A study of Mus musculus with 12 samples.

Results

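The testis transcripts of 38 genes of meiotic synapsis and recombination were followed across the offspring of mice given lentiviruses that knock down or overexpress lncRNA5251, a long non-coding RNA. The genes were chosen by name, and all 38 were found among the 20788 genes of the deposited table. For 36 of them the table carried the same symbol, and for 2, Six6os1 and Iho1, it carried the older symbols 4930447C04Rik and Ccdc36 with the same gene ID. They comprise 11 genes of the synaptonemal complex and its axes, 4 of meiotic cohesin, 6 of break formation, 6 of strand exchange, 6 of crossover formation, 3 of telomere attachment and 2 of meiotic entry.

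The samples are whole testes of F1 mice, sequenced as 12 RNA-seq libraries in 4 groups of 3. As the study describes it, testes of 4-week-old ICR males were injected with virus, the males were mated to untreated females, and male offspring (muF1) were collected at 8 weeks, whereas the design text of the series states that the virus went into the F1 testes. The knockdown group derives from a mixture of LV3-based viruses for 3 shRNAs against lncRNA5251, and the 3NC group from the LV3 control virus. The overexpression group derives from a virus in the LV5 backbone that carries the full-length lncRNA5251, and the 5NC group from the LV5 vector itself. All groups therefore share exposure to a lentivirus, and none is untreated. The labels name the strain "IRC mouse" and give no animal for any library, so the p-values here rest on a library-to-library spread that may be purely technical.

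In meiotic prophase the cell cuts its own chromosomes, pairs the homologues and repairs part of the breaks as crossovers. SPO11 makes the breaks, at sites marked by PRDM9 and with the help of accessory proteins. Cohesin rings with meiosis-specific subunits hold sister chromatids along an axis, and the synaptonemal complex zips paired axes together through transverse filaments and a central element. Recombinases carry the broken ends into the homologue, and a further set of proteins matures some of these joints into crossovers. In an adult testis these transcripts come mainly from spermatocytes, with some genes also transcribed later, so the level in whole testis depends on how many such cells there are. Fewer cells of a type and less RNA per cell cannot be told apart in these libraries.

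The members differed widely in base composition, and part of the spread between libraries of one group followed it in 3NC, 5NC and overexpression, as described further below. For this reason, stretches of the coding sequences are shown for 3 members with transcripts poor in G and C (Six6os1, Sycp1 and Hormad1). They are also shown for 3 that are rich in them (Rec8, Msh5 and Syce3). Stretches of Spo11 and Cntd1, the members with the smallest p in both comparisons with 5NC, follow. Each is the middle 90 bases of the coding sequence of the longest annotated protein-coding transcript (GENCODE, build GRCm38), 5′ to 3′ on the coding strand, with G and C in capitals.
Six6os1, bases 817 to 906: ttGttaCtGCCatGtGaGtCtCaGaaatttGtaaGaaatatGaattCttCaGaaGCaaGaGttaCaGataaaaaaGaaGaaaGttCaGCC
Sycp1, bases 1444 to 1533: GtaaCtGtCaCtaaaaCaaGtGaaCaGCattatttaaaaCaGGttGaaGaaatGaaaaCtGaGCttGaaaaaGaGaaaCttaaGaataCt
Hormad1, bases 517 to 606: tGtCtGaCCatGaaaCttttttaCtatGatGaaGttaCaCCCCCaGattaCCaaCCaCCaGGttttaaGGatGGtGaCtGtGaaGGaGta
Rec8, bases 841 to 930: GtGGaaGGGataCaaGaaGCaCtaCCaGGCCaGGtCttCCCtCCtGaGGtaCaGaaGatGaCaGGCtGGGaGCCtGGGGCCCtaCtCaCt
Msh5, bases 1204 to 1293: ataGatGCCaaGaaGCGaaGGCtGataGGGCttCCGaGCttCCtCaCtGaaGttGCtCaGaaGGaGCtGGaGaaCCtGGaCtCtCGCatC
Syce3, bases 88 to 177: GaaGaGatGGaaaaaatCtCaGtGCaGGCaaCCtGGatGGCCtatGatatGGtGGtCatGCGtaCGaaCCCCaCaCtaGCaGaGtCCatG
Spo11, bases 550 to 639: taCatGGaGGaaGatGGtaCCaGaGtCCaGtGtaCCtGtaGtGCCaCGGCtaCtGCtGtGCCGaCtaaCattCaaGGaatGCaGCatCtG
Cntd1, bases 457 to 546: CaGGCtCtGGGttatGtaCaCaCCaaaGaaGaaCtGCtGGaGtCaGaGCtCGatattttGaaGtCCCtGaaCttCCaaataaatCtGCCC
Whole transcripts held 34.5% G and C for Six6os1, 34.6% for Sycp1 and 35.8% for Hormad1. They held 56.7% for Rec8, 55.6% for Msh5 and 52.9% for Syce3, with Spo11 at 45.1% and Cntd1 at 44.5% between these ends. Over the 38 members the median was 44% (range 34.3% to 56.7%), against a median of 49.5% over the table, whose quartiles were 44.4% and 54.5%. A stretch can differ from its transcript: that of Spo11 held 51.1%, above the 50% of the Syce3 stretch.

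Depth was 12719699 to 15771655 estimated reads per library, a 1.24-fold range, and 5NC replicates 2 and 3 and overexpression replicate 3 had the fewest. All 38 members passed the filter on low counts, which 16388 genes passed. The tissue label was checked against marker lists of 9 cell types, and every listed gene was above 0 in at least 1 library. The summed level of 10 spermatocyte markers was 5809 to 6760 CPM, where CPM scales each library to the same total of reads. Marker sums of 8 macrophage genes were 366.6 CPM in 3NC replicate 2 and 472.5 in knockdown replicate 1 against 78.9 to 99.3 in the other 10 libraries, so these 2 libraries stood apart. Without them 0 members passed in knockdown against 3NC and 1 in overexpression against 5NC, as with them, while the genes called over the whole table numbered 159 in place of 51 in overexpression against 5NC and 45 in place of 21 in 5NC against 3NC. The named members of the knockdown comparison are given both ways. No row of the table bears the name lncRNA5251, and the transcript that the shRNAs match exactly, that of Purb, stood at 76.9 to 98.2 CPM, with log2 fold changes of -0.15 (adjusted p = 0.766) for knockdown against 3NC and -0.06 (adjusted p = 0.891) for overexpression against 5NC by edgeR's quasi-likelihood test. The knockdown and the overexpression are therefore named here from the labels alone. Against the 170 annotated transcripts of the members, the 3 shRNAs of 21 bases had at least 6, 6 and 7 mismatches, the closest being in Meioc, Sycp2 and Six6os1.

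Levels between genes were compared as FPKM, reads per kilobase of transcript scaled to the library's total, as the authors computed them. The median of the members' mean levels over the 12 libraries was 9.44 FPKM, against 3.30 over all genes of the table. Genes of the synaptonemal complex had the highest median of the classes, 87.8 FPKM (range 5.82 to 239.9), and genes of break formation the lowest, 2.25 FPKM (range 0.243 to 31.9). The other medians were 47.0 FPKM for cohesin, 28.6 for meiotic entry, 11.01 for strand exchange, 6.98 for crossover and 6.05 for telomere attachment.

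**Figure D1:**
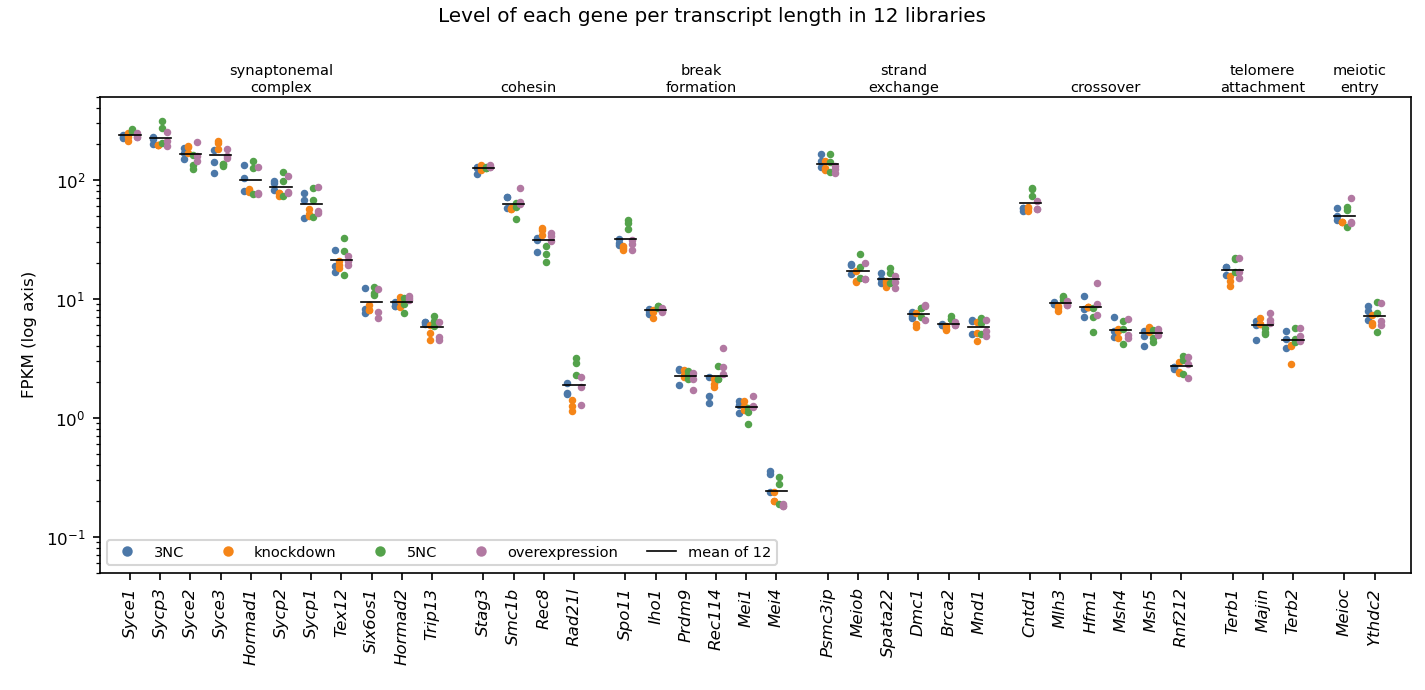
FPKM on a log axis of each of the 38 genes in the 12 libraries, by class, with 1 point per library coloured by group and a bar at the mean of the 12. Most classes span a wide range, from 239.9 FPKM for Syce1 down to 0.243 for Mei4.

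The highest member was Syce1, a central element protein, at 239.9 FPKM on average (213.6 to 266.6 over the libraries). Sycp3, the structural protein of the lateral elements, followed at 223.5 FPKM (192.4 to 309.2), and Syce2, another central element protein, at 165.3 (123.7 to 209.3). Syce1 exceeded Sycp3 in 9 of 12 libraries. The lowest were Mei4, a cofactor of break formation, at 0.243 FPKM (0.18 to 0.36), Mei1, of the same process, at 1.23 (0.89 to 1.54), and Rad21l, a meiosis-specific kleisin subunit of cohesin, at 1.89 (1.15 to 3.21). Mei4 rested on only 7 to 16 estimated reads per library, Rec114 on 15 to 38 and Rad21l on 48 to 97, so their values carry wide counting error. In the order of the 38 means, 36 of the 37 neighbouring pairs had overlapping ranges over the libraries, and only the step from Mei1 to Mei4 did not. Between Spo11 and Rec8 (31.89 and 30.98 FPKM) or Cntd1 and Smc1b (63.7 and 63.0), for example, the gene with the higher mean was the higher in 5 of 12 libraries.

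Partners of one complex were at unequal transcript levels in some pairs and at near equal levels in others. Sycp3 stood at a median of 3.701 times the FPKM of Sycp1, the transverse filament protein (2.92 to 4.20 over the libraries). Syce1 stood at 25.9 times that of its central element partner Six6os1 (19.6 to 33.3), and Psmc3ip at 23.3 times that of Mnd1, with which it forms a complex that assists the recombinases (16.96 to 33.08). Meiob and Spata22, which bind single-stranded DNA together, were near equal, at a ratio of 1.19 (0.983 to 1.37), and so were Msh4 and Msh5, the pair that stabilises recombination intermediates, at 1.02 (0.836 to 1.34). Annotated exons of Spata22 share 80.5% of their bases with Gm49340 on the same strand. Those of Sycp3 share 52.2% with Chpt1 and those of Psmc3ip 21.2% with Mlx, both on the other strand. The levels of these members could include reads of the neighbour, which was not tested.

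The knockdown comparison asks which transcripts differ in offspring of males given the shRNAs. None of the 38 members passed an adjusted p of 0.05 (edgeR's quasi-likelihood test with Benjamini-Hochberg adjustment over 16388 genes), and of all genes tested 0% passed. At an unadjusted p under 0.05 there were 2 members, both higher in knockdown, where 5.64% of all genes passed, 2.56% as higher and 3.08% as lower. DESeq2 called 16 genes in this comparison and 0 members. In 7 members the libraries of the groups did not overlap, against 11.3% of all genes. The median of the members was -0.13 on the log2 scale, with 13 higher and 25 lower, where the median of all genes was -0.02. It was -0.01 with a correction for GC content, which is described further below, and -0.02 without 3NC replicate 3.

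The central element gene Syce3 was the higher member with the smallest p. It stood at 57.8, 33.2 and 47.4 CPM in 3NC and 57.0, 69.1 and 71.4 in knockdown. The groups overlapped, with 3NC replicate 2 the lowest of the 6, and the log2 fold change was 0.51 ± 0.17 (SE, unadjusted p = 0.0123, adjusted p = 0.764). Leaving out 3NC replicate 2 gave 0.32 and leaving out 3NC replicate 1 gave 0.71. With 3NC replicate 2 and knockdown replicate 1 both left out it was 0.42.

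Rec8 encodes the kleisin of meiotic cohesin that holds sister chromatids until the divisions. It stood at 62.9, 44.7 and 61.05 CPM in 3NC and 71.4, 77.2 and 68.2 in knockdown, so every knockdown library lay above every 3NC library. The log2 fold change was 0.36 ± 0.15 (SE, unadjusted p = 0.0340, adjusted p = 0.764), 0.23 without the 2 libraries rich in macrophage markers and 0.22 without 3NC replicate 2 alone. The other meiotic kleisin, Rad21l, lay the opposite way. It stood at 4.10, 4.10 and 5.40 CPM in 3NC and 3.03, 3.46 and 3.38 in knockdown, again with no overlap, at a log2 fold change of -0.46 ± 0.23 (SE, adjusted p = 0.764) of -0.48 without those 2 libraries and of -0.31 without 3NC replicate 3.

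Msh5, of the crossover group, stood at 13.5, 10.1 and 14.9 CPM in 3NC and 14.1, 16.1 and 15.9 in knockdown, with overlapping groups and a log2 fold change of 0.26 ± 0.16 (SE, adjusted p = 0.764). It was 0.18 without the 2 libraries rich in macrophage markers, 0.11 without 3NC replicate 2 alone and 0.16 with the GC correction. Meiob stood at 26.2, 28.6 and 33.0 CPM in 3NC and 26.4, 22.9 and 22.4 in knockdown, at -0.29 ± 0.17 (SE, adjusted p = 0.764), and knockdown replicate 1 was above 3NC replicate 1. It was -0.39 without those 2 libraries, -0.19 without 3NC replicate 3 and -0.15 with the GC correction. Terb1, which links telomeres to the nuclear envelope, stood at 39.9, 42.7 and 47.1 CPM in 3NC and 34.4, 33.8 and 38.2 in knockdown. Its groups did not overlap, at -0.29 ± 0.15 (SE, adjusted p = 0.764), and it was -0.28 without those 2 libraries and -0.14 with the GC correction. The remaining members of strand exchange, Dmc1, Psmc3ip, Mnd1, Spata22 and Brca2, had log2 fold changes of -0.18 to -0.09, and none of the 6 genes of that class passed in either direction. Medians by class were -0.11 for the synaptonemal complex, -0.08 for cohesin, -0.01 for break formation, -0.15 for strand exchange, 0.00 for crossover, -0.29 for telomere attachment and -0.19 for meiotic entry, with no gene passing in any. With the GC correction they were 0.04, 0.01, -0.02, -0.07, 0.08, -0.14 and -0.05 in the same order.

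The precision of this comparison can be read from the intervals. For 37 of the 38 members the 95% interval of the log2 fold change lay within a 2-fold change in either direction, and for 22 within 1.5-fold. The exception at 2-fold was Mei4, whose interval reached -1.16. The median half-width was 0.35 on the log2 scale. For the other 16 members a change of 1.5-fold in at least one direction lay inside the interval.

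**Figure D2:**
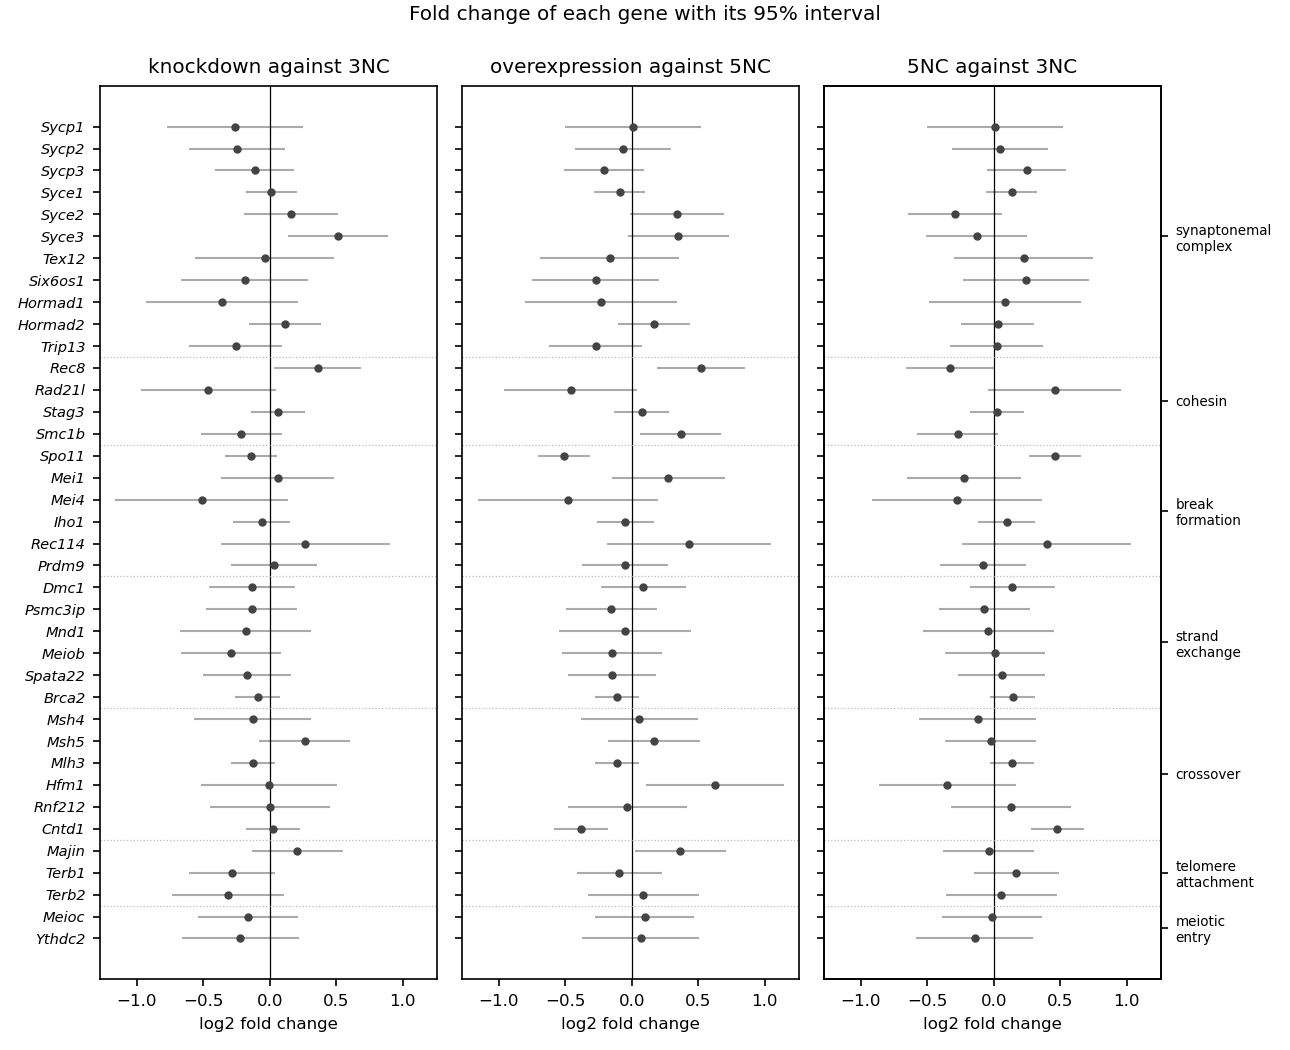
Log2 fold change of each of the 38 genes, by class, with its 95% interval from edgeR's quasi-likelihood fit, in knockdown against 3NC, overexpression against 5NC and 5NC against 3NC. Intervals cross 0 for most genes, and Spo11 at -0.51 in the middle panel is the gene that passed an adjusted p of 0.05.

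In overexpression against 5NC, 1 of the 38 members passed, Spo11, which was lower in the overexpression libraries, where 0.104% of all genes passed as lower, 0.207% as higher and 0.311% in either direction. Spo11 encodes the catalytic subunit of the enzyme that makes meiotic double-strand breaks, and lies on chromosome 2 from 172977379 to 172993576 (GRCm38). It stood at 43.2, 44.6 and 46.4 CPM in 3NC, 39.4, 42.3 and 39.8 in knockdown, 56.8, 62.3 and 66.0 in 5NC and 44.2, 39.2 and 46.4 in overexpression. The 5NC libraries were the highest of all 12, and each lay above the other 9 libraries. Spo11 fell by 0.51 on the log2 scale (SE 0.09, adjusted p = 0.0452) to 0.701 times its 5NC level, a group mean of 43.3 ± 3.72 CPM (SD, n = 3) against 61.7 ± 4.66 in 5NC.

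The call lay close to the threshold. Of 12 fits that each left out 1 library it was kept in 3, those lacking replicate 2 or 3 of 3NC or replicate 1 of 5NC. Lacking 5NC replicate 2 or 3, the adjusted p was 0.162 or 0.241, and lacking overexpression replicates 1, 2 or 3 it was 0.167, 0.253 or 0.0831. The call was also lost on leaving out 3NC replicate 1 or any one knockdown library. With 1 library fewer the filter also kept more genes, 16548 to 16750, and without any filter the call was lost as well (adjusted p = 0.0614). It was lost with a correction for GC content (adjusted p = 0.0683), with a replicate block (0.0811), with both (0.153) and in a fit to only the libraries compared (0.0736), and kept in the other 8 of 13 settings that left out no single library. Over every setting the fold change stayed between -0.58 and -0.44 on the log2 scale.

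Against 3NC, 5NC was higher for the same gene, with a log2 fold change of 0.46 ± 0.09 (SE, adjusted p = 0.0826). Overexpression and 3NC libraries of Spo11 lay in one range, 39.2 to 46.4 CPM. The comparisons with 5NC share the 5NC libraries, so they are not separate evidence about Spo11.

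Cntd1, whose product is needed for crossover maturation, had a like pattern. It lies on chromosome 11 from 101279203 to 101288701 and stood at 115, 113 and 128 CPM in 3NC, 112, 124 and 126 in knockdown, 150.3, 174 and 172 in 5NC and 120.4, 122 and 139 in overexpression. Each 5NC library was above the other 9 libraries. The log2 fold change was -0.38 ± 0.09 (SE, adjusted p = 0.128) in overexpression against 5NC and 0.48 ± 0.09 (SE, adjusted p = 0.0826) in 5NC against 3NC. DESeq2 called both genes in both comparisons, where it called 328 of 16388 genes in overexpression against 5NC and 171 in 5NC against 3NC, with an adjusted p of 0.0127 for Cntd1 in overexpression against 5NC.

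Of the 38 members, 3 had all 5NC libraries outside the range of the other 9, Spo11, Cntd1 and Brca2, each of them above it, where 5.91% of all genes lay outside on either side. Brca2, which loads recombinases onto single strands, did so narrowly, at 67.8 to 71.6 CPM in 5NC against 56.8 to 66.8 elsewhere. Annotated exons of Cntd1 share 70.2% of their bases with Becn1 on the opposite strand, and Cntd1 was the only member with fractional reads. Becn1 itself stood at 106.1 to 113.3 CPM in 5NC and at 114.3 to 125.5 in the other libraries, the reverse order to Cntd1. Reads of the 2 genes cannot be told apart where they overlap, since no strand marking is described.

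**Figure D3:**
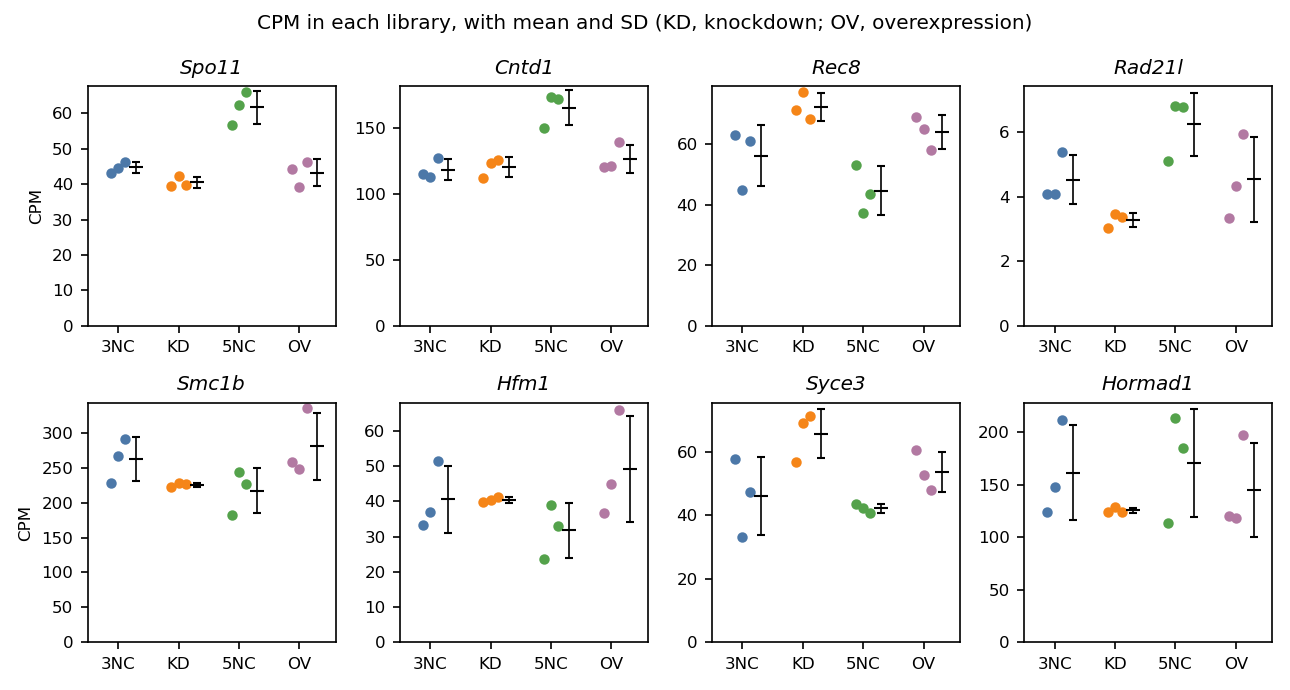
CPM of 8 genes in each library (points, in the order of the replicates) with the mean and SD of each group of 3. The 5NC libraries of Spo11 and Cntd1 lie above all others, whereas Hormad1 splits within groups, with 3NC replicate 3, 5NC replicates 2 and 3 and overexpression replicate 3 at 185.0 to 213.3 CPM.

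The neighbourhood of Spo11 was examined because Gm40011, which was nearly absent from 5NC, starts 89204 bases from it. Gm40011 stood at 0.0624, 0.281 and 0.215 CPM in 5NC and at 5.63 to 11.1 CPM elsewhere. Of 19 other genes tested within 1000000 bases of Spo11, it was the only one that passed in overexpression against 5NC. Unadjusted, 5.26% passed a p of 0.05, which was Gm40011 alone. In 5NC against 3NC, Gm40011 was again the only one that passed, and 15.8% passed unadjusted, against 10.8% over all genes. Within the same distance of Cntd1, 0 of 73 passed by the same test in either comparison. There 9.59% passed unadjusted in overexpression against 5NC, against 11.9% over all genes, and 8.22% in 5NC against 3NC. Whether the nearby gene bears on Spo11 was not tested.

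At an unadjusted p under 0.05 there were 4 higher and 2 lower members in overexpression against 5NC, 6 of 38 where 11.9% of all genes passed, 7.07% as higher and 4.85% as lower. In 10 members the groups did not overlap, against 21.3% of all genes, and the median was -0.05 where that of all genes was -0.01.

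Rec8 was the higher member with the smallest p, at 53.2, 37.4 and 43.4 CPM in 5NC and 69.0, 65.1 and 58.1 in overexpression. All 3 overexpression libraries lay above all 3 of 5NC, at a log2 fold change of 0.52 ± 0.15 (SE, adjusted p = 0.187). Smc1b, the meiosis-specific SMC subunit of cohesin, stood at 182, 244 and 226 CPM in 5NC and 258, 248 and 335 in overexpression. The groups did not overlap, though 5NC replicate 2 came within a few CPM of overexpression replicate 2, and the log2 fold change was 0.37 ± 0.14 (SE, adjusted p = 0.325), or 0.23 without overexpression replicate 3. Hfm1, a helicase for crossover formation, stood at 23.5, 39.0 and 33.0 CPM in 5NC and 36.7, 44.9 and 65.9 in overexpression, with overlap and with overexpression replicate 3 far above the rest, at 0.63 ± 0.24 (SE, adjusted p = 0.325), or 0.37 without that library. Among lower members, Rad21l stood at 5.12, 6.82 and 6.80 CPM in 5NC and 3.35, 4.33 and 5.95 in overexpression, at -0.46 ± 0.23 (SE, adjusted p = 0.456), with overexpression replicate 3 inside the 5NC range, and at -0.28 without overexpression replicate 1. Intervals lay within 2-fold for 35 of the 38 members and within 1.5-fold for 23.

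The kleisins of meiotic cohesin can be set side by side within a library. The ratio of Rec8 to Rad21l in FPKM was 20.2, 15.5 and 15.8 in 3NC and 33.2, 28.1 and 27.4 in knockdown. It was 12.2, 6.32 and 8.10 in 5NC and 28.0, 18.4 and 14.0 in overexpression. Knockdown and overexpression thus each lay above their own vector control without overlap, while 5NC lay below 3NC. The pair was picked after these values were seen and the ratio was not tested. Rec8 has 56.7% GC and Rad21l 40.9%, on opposite sides of the members' median, and with the GC correction described below the log2 fold changes were 0.24 and -0.32 in knockdown and 0.48 and -0.41 in overexpression. Stag3, the meiotic STAG subunit, differed little, with log2 fold changes of 0.06 and 0.07.

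In 5NC against 3NC, which compares the vector controls, none of the 38 members passed, where 0.128% of all genes did, 0.0976% as lower and 0.0305% as higher in 5NC. Without adjustment, 2 members were higher at p under 0.05 (Spo11 and Cntd1) and 1 lower (Rec8), where 10.8% of all genes passed, 4.21% as higher and 6.55% as lower. DESeq2 called 2 members, Spo11 and Cntd1, among 171 genes of 16388. In 4 members the groups did not overlap, against 13% of all genes. The median was 0.03, with 23 higher and 15 lower, where the median of all genes was -0.02. It was 0.07 with the GC correction, -0.06 without 5NC replicate 2 and -0.12 with a term for the 3 libraries of fewest reads, so it had no stable direction.

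Rec8 had a log2 fold change of -0.33 ± 0.15 (SE, adjusted p = 0.463) with overlapping groups, and of -0.22 without 5NC replicate 2. Smc1b was at -0.27 ± 0.14 (SE, adjusted p = 0.503), or at -0.16 without 5NC replicate 1 and -0.18 without 3NC replicate 3, and Rad21l at 0.46 ± 0.23 (SE, adjusted p = 0.491), from the library values given above. Syce2 stood at 148, 109 and 139 CPM in 3NC and 97.7, 122 and 103 in 5NC, at -0.29 ± 0.16 (SE, adjusted p = 0.533), and 3NC replicate 2 lay within the 5NC range. Intervals were within 2-fold for 37 of 38 members.

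The test of whether the knockdown and overexpression effects differ from each other called 0 of 38 members, where 0.0244% of all genes passed, 0.0061% as higher and 0.0183% as lower. At an unadjusted p under 0.05 there were 3, Cntd1, Spo11 and Smc1b, against 4.63% of all genes, 1.9% as higher and 2.73% as lower, and DESeq2 called 0 members among 42 genes of 16388. The difference on the log2 scale, knockdown effect minus overexpression effect, was 0.41 ± 0.13 for Cntd1 (SE, adjusted p = 0.972), 0.37 ± 0.13 for Spo11 and -0.58 ± 0.20 for Smc1b (SE, both at adjusted p = 0.9999). It was 0.10 ± 0.12 for Syce1, -0.63 ± 0.33 for Hfm1 and -0.40 ± 0.27 for Terb2. Of these, Hfm1 was at -0.37 without overexpression replicate 3 and -0.42 without 3NC replicate 3, Terb2 at -0.23 with 3NC replicate 3 left out and -0.27 with knockdown replicate 3 left out, and Syce1 ranged from 0.03 to 0.18 with 1 library left out. Syce1 stood at 309, 282 and 332 CPM in 3NC, 277, 339.5 and 315 in knockdown, 339, 343 and 331 in 5NC and 311, 310.3 and 329.6 in overexpression, where each 5NC library lay just above each overexpression library and other groups overlapped. Terb2, a telomere attachment protein, stood at 7.68, 8.51 and 11.01 CPM in 3NC, 7.97, 8.11 and 5.81 in knockdown, 8.48, 10.98 and 8.80 in 5NC and 8.88, 9.79 and 11.3 in overexpression, with knockdown replicate 3 the lowest library. Intervals of this difference were wider, with a median half-width of 0.50.

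A list of 61 other genes of meiosis, of which 58 were matched and tested, had 0 calls in each of the 4 comparisons by the same test. At an unadjusted p under 0.05 it had 1 gene in knockdown against 3NC, 7 in overexpression against 5NC, 6 in 5NC against 3NC and 4 in the difference of effects, where 5.64%, 11.9%, 10.8% and 4.63% of all genes passed. In knockdown, the median was -0.09. H2ax, the histone variant phosphorylated at breaks, was at 0.37 and Prr19, a crossover factor, at 0.23 on the log2 scale, while Swi5 and Rad50, of strand exchange and break processing, were at -0.19 and -0.21. In overexpression against 5NC, Rpa1, the large subunit of the single-strand binding protein, was at -0.47 (adjusted p = 0.0599) and Stra8, a driver of meiotic entry, at -0.47, with Zcwpw1 at 0.22 and Mdc1 at 0.17. Rpa1 stood at 212, 203 and 208 CPM in 3NC, 164, 195 and 210.3 in knockdown, 258, 273 and 281 in 5NC and 191, 196 and 201 in overexpression, so its 5NC libraries too lay above the other 9. In 5NC against 3NC, Rpa1 was at 0.38 and the helicase gene Blm at 0.23, with the cohesin genes Rad21 at -0.33 and Smc3 at -0.26. In the difference of effects, Rpa1 was at 0.34, Plk1 at 0.18, Zcwpw1 at -0.40 and Rad21 at -0.29.

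Libraries of one group also differed from each other in these genes. For each gene, the log2 CPM in a library was compared with the mean of its group. In 3NC replicate 3, 35 of the 38 members lay above the group mean, in 5NC replicate 2, 33 did, and in overexpression replicate 3, 29 did. In 3NC replicate 2, 5NC replicate 1 and overexpression replicate 2 the numbers were 6, 7 and 9. Over all genes tested the share above the group mean was 46.9% to 52.0% in each library. The median deviation of the members ran from -0.15 in 5NC replicate 1 to 0.15 in 3NC replicate 3, and that of all genes from -0.02 to 0.01.

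**Figure D4:**
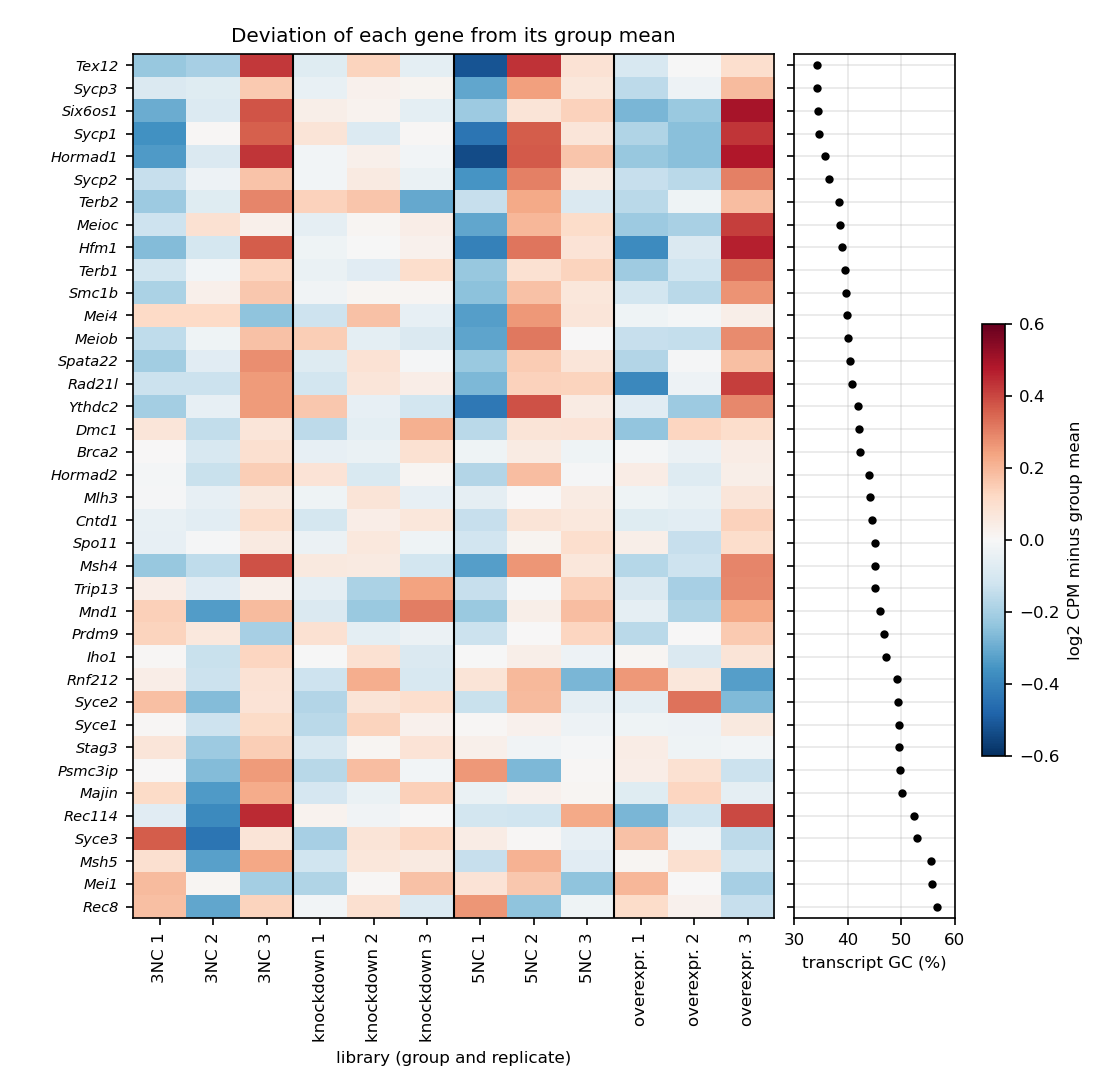
Log2 CPM of each of the 38 genes minus the mean of its group, by library, with genes ordered by the GC content of their transcript (right, in percent). Genes poor in G and C at the top share strong colours in 3NC replicate 3, 5NC replicates 1 and 2 and overexpression replicate 3, and most genes rich in them at the bottom are paler or of the opposite colour, with Rec114 (0.45 in 3NC replicate 3 and 0.40 in overexpression replicate 3) an exception.

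Hormad1, an axis protein that marks unsynapsed chromosomes, showed the split most clearly. It stood at 124, 148 and 212 CPM in 3NC, 124, 128 and 124 in knockdown, 114, 213 and 185 in 5NC and 120.2, 118 and 197 in overexpression. The libraries 3NC replicate 3, 5NC replicates 2 and 3 and overexpression replicate 3 formed a high set at 185.0 to 213.3 CPM, and the other 8 lay at 113.9 to 147.7. Sycp1 ran from 159.8 to 263.3 CPM in 3NC, from 165.0 to 184.4 in knockdown and from 151.7 to 265.0 in 5NC, with 3NC replicate 3 and 5NC replicate 2 the highest of their groups, and overexpression replicate 3 was the highest of its own. The within-group SD was 0.37 for Hormad1, 0.33 for Sycp1 and 0.33 for Hfm1 on the log2 scale, but 0.06 for Mlh3, 0.07 for Brca2 and 0.09 for Spo11 and Iho1.

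In 3NC, 5NC and overexpression, part of this spread ran along the GC content of the transcripts. The difference of 5NC replicates 2 and 3 from replicate 1 had a correlation with GC content of r = -0.79 over the 38 members, and that of overexpression replicate 3 from replicates 1 and 2 of r = -0.70. Over the 15963 genes tested with a known GC content the values were r = -0.49 and r = -0.46. In knockdown, the difference of replicate 1 from replicates 2 and 3 had r = -0.41 over the members and r = -0.05 over all genes. These are descriptions across genes of the same libraries, and genes are not independent replicates. The 12 members under 40% GC had median differences of 0.48 in 5NC and 0.47 in overexpression, and the 11 members of at least 48% had medians of -0.05 and -0.20. All tested genes in the same ranges had medians of 0.36 and 0.36 under 40%, and of -0.15 and -0.14 from 48%. The libraries on the high side of these differences, 5NC replicates 2 and 3 and overexpression replicate 3, were those with the fewest reads, but 3NC replicate 3, which had 15511362, also had the higher values in members poor in G and C against 3NC replicate 1 (r = -0.60 over the members, median 0.43 under 40% GC). There the members from 48% GC were not lower, at a median of 0.08. Over all genes the difference of 3NC replicate 3 from replicate 1 had r = -0.39, with medians of 0.34 under 40% GC and -0.15 from 48%. Against the mean of the other libraries of its group, 3NC replicate 3 had r = -0.32 over the members and -0.20 over all genes. For 3NC replicate 1 these values were 0.78 and 0.38, and for 3NC replicate 2 they were -0.58 and -0.08. The marker sums of other cells, which carry no GC correction, are set beside this spread. The summed Sertoli cell markers, with all 8 listed genes above 0, were lower in the libraries on the high side. Their sum was 640.6 CPM in 3NC replicate 3 against 709.0 and 940.1 in the other 3NC libraries, 694.7 and 673.5 in 5NC replicates 2 and 3 against 794.1 in replicate 1, and 651.3 in overexpression replicate 3 against 805.8 and 839.6. Endothelial markers also had lower sums there, at 28.1 CPM in 3NC replicate 3 against 34.8 and 40.98, at 21.7 and 28.5 in 5NC replicates 2 and 3 against 36.3, and at 27.7 in overexpression replicate 3 against 34.7 and 31.4. Peritubular myoid markers were lower in 3NC replicate 3 and in 5NC replicates 2 and 3, but lay between the others in overexpression replicate 3. Elongating spermatid markers were lower in 5NC replicates 2 and 3 (16470 and 17500 CPM against 19920) and in overexpression replicate 3 (16970 against 19310 and 20570), but lay between the others in 3NC replicate 3. The Leydig sum was lowest of its group in 3NC replicate 3 and lower in 5NC replicates 2 and 3 than in replicate 1, but highest of its group in overexpression replicate 3. Spermatocyte markers were lowest of their group in overexpression replicate 3 (6419 CPM against 6723 and 6625) and highest in 5NC replicate 1 (6760 against 6566 and 6739). Round spermatid markers were lower in 5NC replicates 2 and 3 (1434 and 1465 CPM against 1517). In overexpression replicate 3 they were at 1535 against 1789 and 1717, but in 3NC replicate 3 at 1750, the highest of that group. Spermatogonial markers were lowest of their group in 3NC replicate 3 (132.6 CPM). They lay between the others in overexpression replicate 3 and differed little within 5NC (146.2 to 149.9 CPM). The part of depth and of cell makeup in this spread was not tested. With each library's trend on GC content removed, the members' median within-group SD was 0.178 on the log2 scale in place of 0.201. Over all genes tested it was 0.198 in place of 0.215. The SD fell for some members, such as Sycp1 (0.13 in place of 0.33) and Hormad1 (0.20 in place of 0.37). It rose for others, such as Brca2 (0.16 in place of 0.07) and Mlh3 (0.12 in place of 0.06). Stag3 (0.17 in place of 0.11) and Iho1 (0.13 in place of 0.09) rose as well.

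**Figure D5:**
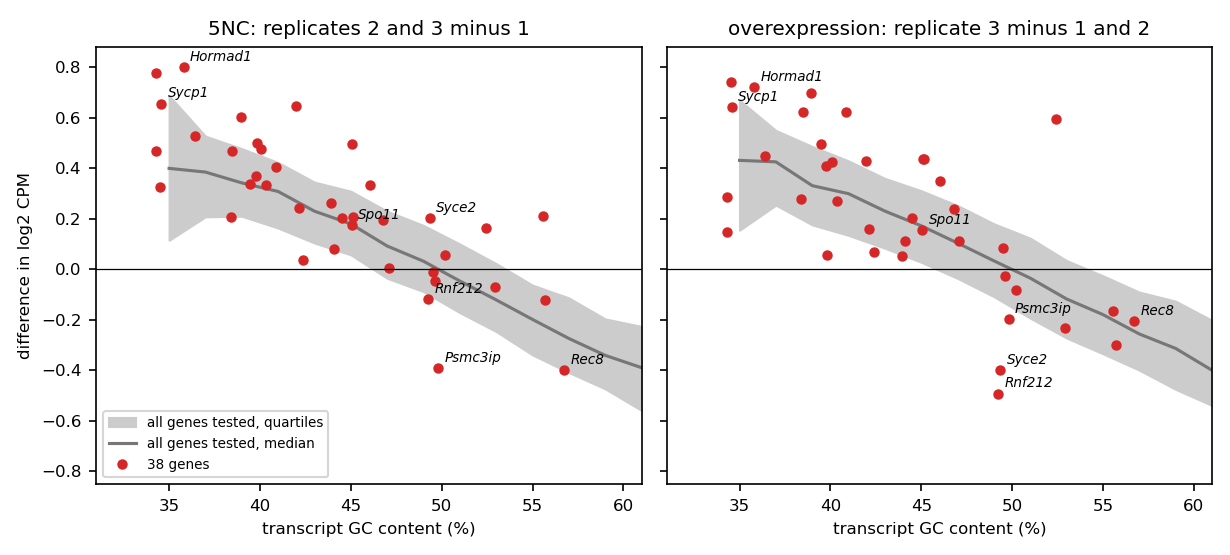
Difference in log2 CPM between libraries of 1 group against transcript GC content in percent, for 5NC (left) and overexpression (right), with the 38 genes as points and the median and quartiles of all genes tested, in bins of GC content, as a line and band. The line falls from about 0.4 at the low end to below 0 above 50%, and most members lie along it, with Rec114 well above it in overexpression.

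The knockdown comparison moved with the same property. All 12 members under 40% GC had a fold change below 0 in knockdown against 3NC, with a median of -0.23, and 1 of the 11 members from 48% GC did, with a median of 0.16. Across the members this fold change and GC content had r = 0.73, and across all genes r = 0.31. With a correction that removed each library's trend on GC content before the test, the members' median was -0.01 in place of -0.13, with 16 higher and 22 lower, and 0 of 38 passed. Without 3NC replicate 3 the median was -0.02. In overexpression against 5NC the correction left a median of -0.02, and Spo11 at -0.48 (adjusted p = 0.0683), Smc1b at 0.43 (adjusted p = 0.0741) and Hfm1 at 0.69 (adjusted p = 0.105).

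In the libraries rich in macrophage markers the members lay further below the group mean with the trend on GC content removed than with it. In 3NC replicate 2 the median deviation was -0.22 with the correction, with 0 of the 38 members above the group mean, and -0.09 without it, with 6 above. In knockdown replicate 1 it was -0.17 with 3 above, and -0.05 without the correction with 9 above. In the other libraries of these groups 28 to 34 lay above with the correction. Each group mean includes the low library, so these higher counts are not a separate observation. Without the correction, 47.6% of all genes lay above in 3NC replicate 2 and 51.3% in knockdown replicate 1. The share over all genes with the correction is not given here. The summed spermatocyte markers, which hold no member, were 5809 CPM in 3NC replicate 2 against 6458 and 6451 in 3NC replicates 1 and 3, and 6155 in knockdown replicate 1 against 6556 and 6588. The part of other cells in these libraries was not tested. Leaving both out, the median of knockdown against 3NC was -0.13, as with them.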

How the data were processed

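Testis RNA of F1 mice was enriched with oligo(dT) beads and sequenced on a HiSeq instrument, per the study's methods, and the authors aligned the reads with SOAPaligner (v 2.20) to mm10. Per gene, the deposited values are estimated counts that were not scaled, 12% of them fractional, and FPKM values computed by the authors, which their methods call RPKM. No source used here gives how reads were shared among genes. Columns of group means were not used, nor were 18 per-sample columns of other groups.

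Groups came from the sample titles. Estimated counts were rounded, filtered with filterByExpr (16388 of 20788 genes kept), scaled by TMM and fitted with edgeR 4.0.16 (R 4.3.3), with 1 coefficient per group over all 12 libraries. The quasi-likelihood test gave p-values, adjusted by Benjamini-Hochberg over all genes tested and called under 0.05. Between libraries the fit had a coefficient of variation of 22.9%, 8 residual and 3.37 prior degrees of freedom. Intervals of 95% used the SE and 11.4 degrees of freedom. CPM values are scaled by TMM, except marker sums. Log2 CPM for deviations used a prior count of 2.

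GC content came from the longest coding transcript in GENCODE vM21 (GRCm38, the build of mm10), with values for 38 members and 15963 of the genes tested. Symbols and coordinates came from a RefSeq table of GRCm38, which held 20630 of the gene IDs. Named genes were the members that passed and, per contrast, the 3 higher and 3 lower with the smallest p, the 3 highest and 3 lowest by FPKM, and of other meiotic genes the 2 higher and 2 lower with the smallest p. Hormad1, Sycp1, Brca2, Gm40011, Becn1, the pairs set as ratios and the GC ranges were picked once their values had been seen. So were the library differences set against GC content. The members and lists were chosen with earlier results of these data known.

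Alternatives were RLE size factors, total counts, no filter, a replicate block, a fit to only the libraries compared, every library left out in turn, 3NC replicate 2 and knockdown replicate 1 left out, DESeq2 1.42.0, and limma 3.58.1 on log2 CPM and on log2(FPKM + 0.1) or log2(FPKM + 1) where 3 libraries reached an FPKM of 0.5. A GC content offset (a loess trend per library, span 0.3), that offset with the block, and a term for the 3 libraries of fewest reads were added after the data were examined. The main edgeR fit was run on simulated counts with known changes, for each comparison but the difference of effects. The simulation held no GC trend, and the alternatives were not tested on it.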

Additional observations from a re-analysis of the deposited data

How the results depend on the processing

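Spo11 was the only member called in overexpression against 5NC, and the number of members called there was 0 with no low-count filter, with a replicate block, with the GC content offset, with that offset and the block together, and with only the libraries compared, and 2 with DESeq2. Leaving out each library of that comparison in turn gave 0 to 1. Its direction held under every alternative. In 5NC against 3NC the number of members called was 1 with total counts without scaling (Cntd1) and 2 with DESeq2. Other meiotic genes called numbered 1 in overexpression against 5NC with total counts, DESeq2, both FPKM scales, without 3NC replicate 2 and knockdown replicate 1, and with only the libraries compared, and 2 in 5NC against 3NC with DESeq2. The median of members in 5NC against 3NC was -0.12 with a term for the 3 libraries of fewest reads, against 0.03, and the cause was not tested. No member was called in knockdown against 3NC or in the difference of effects under any alternative. For single genes, only left-out libraries of the comparison itself were counted here. On that count 10 values no longer passed, all of them of Spo11 in overexpression against 5NC. Another 4 newly passed, all of Cntd1 or Spo11. Medians of members were held to a tolerance of 0.119 on the log2 scale, which is wide beside them: within it, the median of knockdown against 3NC went from -0.13 to -0.01 with the GC content offset and to -0.02 without 3NC replicate 3, and that of the difference of effects from -0.04 to 0.03 without 3NC replicate 3.

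The labels do not say whether libraries of the same number share anything else. Their correlations of deviations from the group means were -0.519, -0.641 and 0.386 in knockdown and 3NC. They were 0.195, -0.115 and 0.148 in overexpression and 5NC, and 0.313, 0.185 and -0.007 in 5NC and 3NC. Knockdown replicate 1 and 3NC replicate 2, the libraries rich in macrophage markers, had a correlation of 0.773. Whether libraries of the same number share a batch was not tested. With the replicate block the adjusted p of Spo11 in overexpression against 5NC was 0.0811 at a log2 fold change of -0.51, and genes called over the whole table numbered 21 in place of 51 there and 5 in place of 21 in 5NC against 3NC. The 3 libraries per group limit what could be detected. The interval of Mei4, with 7 to 16 estimated reads, reached beyond 2-fold in knockdown against 3NC and in overexpression against 5NC. In 5NC against 3NC it did not. Wide intervals were not confined to genes of few reads: Hfm1, with 377 to 831, reached 1.14 on the log2 scale in overexpression against 5NC.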
